A study of Mus musculus with 8 samples.

Results

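The comparison set exposed mice against home-cage mice across 2 brain regions at once, and asked which RNAs differed, on average over the regions, shortly after an emotional experience. All 8 of the 8 libraries of the series entered it: 4 from exposed mice and 4 from home-cage mice, with brain region as an additive term, so that the estimate for a gene lay close to the mean of its responses in the 2 regions. Members were chosen by the sample labels alone, and no measured value was used. All mice were adult males of the inbred strain C57Bl6J, with no genotype difference between groups.

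The nucleus accumbens (NAc), a ventral striatal region of the reward circuit, was taken from mice that had explored a conditioned place preference chamber after intraperitoneal cocaine at 7.5 mg/kg (2 libraries) and from home-cage mice (2 libraries). The medial prefrontal cortex (mPFC), a cortical region that takes part in emotional control, was taken from mice that had been attacked by an aggressive CD1 male, the social defeat procedure (2 libraries), and from home-cage mice (2 libraries). Tissue was dissected 15 min after the experience. Each experience was sampled in 1 region only, so region and kind of experience cannot be told apart in any difference between the responses. The controls stayed in the home cage and had no handling, injection or chamber exposure named in the labels, and neither exposed group had such a control. Nothing in the labels states that libraries of a group came from separate animals or how many animals each held. The p-values therefore measure the spread between these libraries, which may be technical. For the average response, that spread also takes in any difference between the regions' responses, because the additive fit leaves it in the residual.

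Immediate early genes are transcribed within minutes of neuronal firing from factors that are already present in the cell, such as CREB and SRF, without new protein synthesis. Calcium entry and the ERK kinase cascade phosphorylate these factors, which bind the cAMP response element (CRE) and the serum response element in the promoters of Fos, Egr and related genes. The products are transcription factors that start later programmes, and effectors that act at synapses, on kinase signalling or on mRNA decay.

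Library totals ranged from 111901829 to 179479978 counts, and 18783 of 33885 gene symbols passed the low-count filter. Levels are given in CPM (a library's counts scaled to a common total), with TMM factors over the 8 libraries, and differences as log2 fold changes of exposed over home cage with their standard error (SE). The NAc libraries stood apart from each other by the replicate number in their titles. The 16 striatal projection neuron markers summed to 6494 CPM in cocaine replicate 1 and 7320 CPM in home-cage replicate 1, but to 2859 CPM in cocaine replicate 2 and 2488 CPM in home-cage replicate 2. The 12 cortical glutamatergic neuron markers summed to 1525 and 1391 CPM in the NAc libraries numbered 1 and to 1959 and 2054 CPM in those numbered 2. All 4 mPFC libraries lay between 965.1 and 1086 CPM for the striatal markers and between 2624 and 2823 CPM for the cortical markers. Every NAc library thus had a higher striatal and a lower cortical sum than every mPFC library. The mean log2 CPM of the striatal markers minus that of the cortical markers lay between -3.948 and -3.823 in mPFC. It was 1.447 (cocaine) and 1.944 (home cage) in the NAc libraries numbered 1, but -0.4226 and -0.5173 in those numbered 2. The part of this spread in the results below was not tested, and counts of genes are therefore also given without those libraries. In bulk tissue, fewer cells of a type and less RNA per cell cannot be told apart.

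After experience, 5 genes rose in the average over both regions: the neuronal transcription factor Npas4, the zinc finger factor Egr2, the AP-1 subunit Fosb, the microRNA gene Mir132 and the secreted matricellular protein gene Ccn1. Their average changes ran from 1.85-fold for Fosb to 4.90-fold for Ccn1. No gene fell. Of 18783 genes tested with edgeR's quasi-likelihood test and Benjamini-Hochberg adjustment, 0.0266% were called higher and 0% lower. At an unadjusted p under 0.05, 376 genes were higher, which is 2% of those tested, and 194 were lower. The DESeq2 Wald test on the same design called 37 genes higher and 1 lower. As single libraries were left out, edgeR called between 2 and 21 genes higher, the most without NAc home-cage replicate 2.

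The regulatory DNA of the called genes is shown here because CRE and serum response elements are the textbook entry points of activity into these promoters. RefSeq promoter windows on GRCm38.p6 (mm10), from 250 bases before to 50 bases after the start site, were found for 4 of the 5 called genes. Below are the 250 bases before the start site, or, for Npas4, 30 bases around the sites, because a longer annotated transcript covers its window. The core of the CRE (TGACG, or CGTCA on the other strand) and the CArG box of the serum response element are in capitals. The Npas4 bases are chr19:4990127-4990156 on the minus strand, those of Egr2 are chr10:67537619-67537868 on the plus strand, those of Fosb are chr7:19310046-19310295 on the minus strand, and those of Ccn1 are chr3:145649986-145650235 on the minus strand.
Npas4: gttcgaCGTCAcgggaTGACGtcggaagtc
Egr2: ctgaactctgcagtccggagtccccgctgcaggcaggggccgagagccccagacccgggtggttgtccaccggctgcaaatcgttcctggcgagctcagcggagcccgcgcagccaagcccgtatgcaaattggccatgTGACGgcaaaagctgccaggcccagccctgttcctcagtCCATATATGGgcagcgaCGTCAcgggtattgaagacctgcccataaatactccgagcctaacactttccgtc
Fosb: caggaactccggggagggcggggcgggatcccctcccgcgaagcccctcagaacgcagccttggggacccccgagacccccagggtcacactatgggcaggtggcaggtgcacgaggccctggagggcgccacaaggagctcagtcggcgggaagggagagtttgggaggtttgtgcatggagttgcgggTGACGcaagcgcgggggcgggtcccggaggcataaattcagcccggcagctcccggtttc
Ccn1: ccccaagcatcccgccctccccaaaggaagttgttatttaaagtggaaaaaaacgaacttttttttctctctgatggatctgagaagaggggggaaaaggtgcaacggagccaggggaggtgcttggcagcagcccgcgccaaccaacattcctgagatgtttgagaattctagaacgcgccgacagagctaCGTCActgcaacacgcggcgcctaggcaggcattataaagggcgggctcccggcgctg

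The CRE core was present in 4 of the 4 windows. In Npas4 it began 179 bases before the start site on the reverse strand and again 169 bases before it on the forward strand. In Egr2 it began 111 and 55 bases before the start site, on either side of a CArG box that began 72 bases before it. A match began 60 bases before the start in Fosb and 58 bases before it in Ccn1. Over all tested genes with a window, 27.6% of 13712 windows held the core on either strand. A match is a run of letters and not a measured binding site.

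Npas4, which is induced by calcium influx in neurons and shapes inhibitory synapses, had the smallest p. Its level was 44.7 and 49.7 CPM in the cocaine libraries and 12.6 and 16.7 CPM in NAc home-cage libraries. In mPFC it was 79.4 and 69.7 CPM after social defeat and 17.4 and 19.3 CPM in the home cage. Every exposed library lay above every home-cage library, across regions too. The average log2 fold change was 1.86 (SE 0.114; adjusted p = 0.00191), from 1.69 in NAc and 2.02 in mPFC.

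Egr2, a factor of the Egr family that binds GC-rich elements, was at 4.69 and 4.75 CPM after cocaine against 1.90 and 2.08 CPM in NAc home-cage libraries. After social defeat it was at 17.2 and 17.2 CPM against 5.24 and 6.54 CPM in mPFC home-cage libraries. The groups did not overlap within either region, while the mPFC home-cage libraries lay above the cocaine libraries. Its average log2 fold change was 1.40 (SE 0.0972; adjusted p = 0.00266), with 1.25 in NAc and 1.55 in mPFC.

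Fosb, whose stable splice form builds up in the NAc over repeated drug exposure, was at 18.2 and 18.9 CPM after cocaine against 10.4 and 11.6 CPM in the NAc home-cage libraries. In mPFC it was at 45.5 and 41.7 CPM after defeat against 20.9 and 22.2 CPM. Here too the groups were apart within each region. The counts are per gene, so splice forms were not resolved. Of the 5 genes it had the smallest change, 0.89 on the log2 scale (SE 0.0722; adjusted p = 0.00662).

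Ccn1, formerly Cyr61, encodes a secreted matrix-associated protein that signals through integrins. The cocaine libraries had 7.02 and 11.3 CPM and the NAc home-cage libraries 1.68 and 3.20 CPM. After defeat it reached 14.2 and 13.5 CPM against 2.35 and 1.97 CPM in mPFC home-cage libraries. This was the largest average log2 fold change among the called genes, 2.29 (SE 0.256; adjusted p = 0.0475). Its adjusted p was 0.0502 with DESeq2's size factors, 0.0683 with a stricter low-count filter and 0.185 with robust dispersion estimates, while its fold change hardly moved.

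Mir132, a CREB-responsive microRNA gene that in neurons acts on dendrite growth, was at 0.901 and 0.947 CPM after cocaine and 0.356 and 0.398 CPM in NAc home-cage libraries. In mPFC the values were 1.75 and 1.29 CPM after defeat and 0.405 and 0.462 CPM in the home cage. Exposed and home-cage libraries did not overlap in the whole series. The average log2 fold change was 1.56 (SE 0.166; adjusted p = 0.0429). It was 0.0543 under the stricter low-count filter.

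Mir212, which lies beside Mir132 on chromosome 11 and shares its primary transcript, came next in the ranking and missed the threshold, with an average log2 fold change of 1.53 (SE 0.195; adjusted p = 0.108). It is named here after its values were seen. It had 4.33 and 4.26 CPM after cocaine against 1.59 and 2.38 CPM, and 9.47 and 9.03 CPM after defeat against 2.14 and 2.697 CPM. Its exposed libraries also lay above all home-cage libraries, and DESeq2 called it higher (adjusted p = 4.63e-12). The mature products are printed because the pair of 3p strands has the same seed (bases 2 to 8, in capitals), and thus belong to 1 seed family. The sequences are from RefSeq on GRCm38.p6.
mmu-miR-132-3p: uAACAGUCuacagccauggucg
mmu-miR-212-3p: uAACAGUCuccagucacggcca
mmu-miR-132-5p: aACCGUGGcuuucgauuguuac
mmu-miR-212-5p: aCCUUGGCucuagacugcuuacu

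The libraries were made from total RNA, and the counts at chr11:75173682-75173747 (Mir132) and chr11:75173388-75173478 (Mir212) do not separate primary transcript, hairpin and mature strand. The lower coordinate of the protein-coding gene Ovca2 lies 2196 bases beyond the end of Mir132. It had 8.97 and 9.90 CPM after cocaine against 6.58 and 7.09 CPM in the home cage, and 12.5 and 12.2 CPM after defeat against 4.89 and 4.49 CPM. The average response was 0.93 on the log2 scale (SE 0.175; adjusted p = 0.493). The strand setting of the counting is not given in the sources used here, so reads of neighbouring transcripts cannot be assigned with certainty.

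**Figure D1:**
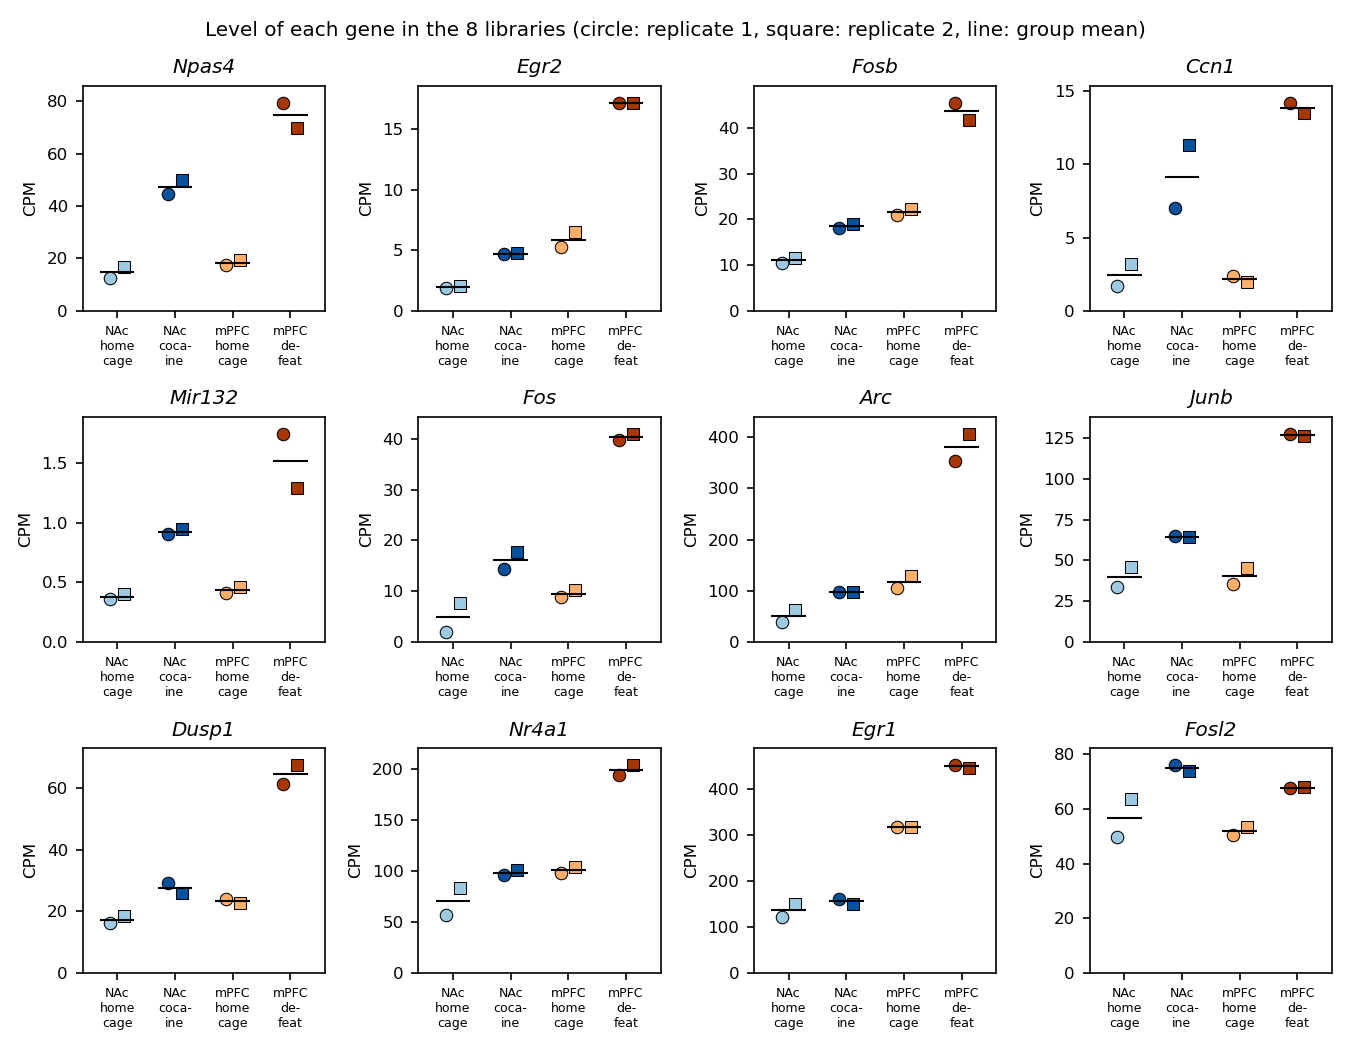
Level in CPM (y axes from 0) of 12 genes in each of the 8 libraries, grouped on the x axis by region and condition; circles are replicate 1, squares replicate 2 and lines group means. In each of the 12 genes both exposed libraries lay above both home-cage libraries in each region, and the home-cage level itself differed between regions, as for Egr2 and Egr1.

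The number of calls depended on single libraries. Leaving out 1 library at a time gave 3 higher genes without NAc cocaine replicate 2, 8 without NAc home-cage replicate 1 and 21 without NAc home-cage replicate 2. It gave 2 without mPFC home-cage replicate 1, 2 without mPFC home-cage replicate 2, 3 without defeat replicate 1 and 2 without defeat replicate 2. Npas4 and Egr2 were called in all 8 of these fits, and 0 genes were called lower in any of them. Fosb lost its call without mPFC home-cage replicate 1 (adjusted p = 0.0605), mPFC home-cage replicate 2 (adjusted p = 0.116) or defeat replicate 2 (adjusted p = 0.0721). Mir132 kept its call only without NAc home-cage replicate 1 or 2, and Ccn1 only without those or without NAc cocaine replicate 1. Without both NAc libraries numbered 1, 44 genes were higher and 0 lower, and without both numbered 2, 59 were higher and 12 lower.

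With the NAc libraries alone, edgeR called 0 genes in either direction (211 at an unadjusted p under 0.05), and Npas4, Egr2, Fosb, Mir132 and Ccn1 had log2 fold changes of 1.69, 1.25, 0.75, 1.30 and 1.91. With the mPFC libraries alone, 99 genes were higher and 28 lower, 25 of the 99 from the rapid lists described next. A fit of 4 group means, which takes a difference between the regions' responses out of the residual spread, called 9 genes higher: the 5 above and Dusp1, Junb, Mir212 and Ovca2.

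**Figure D2:**
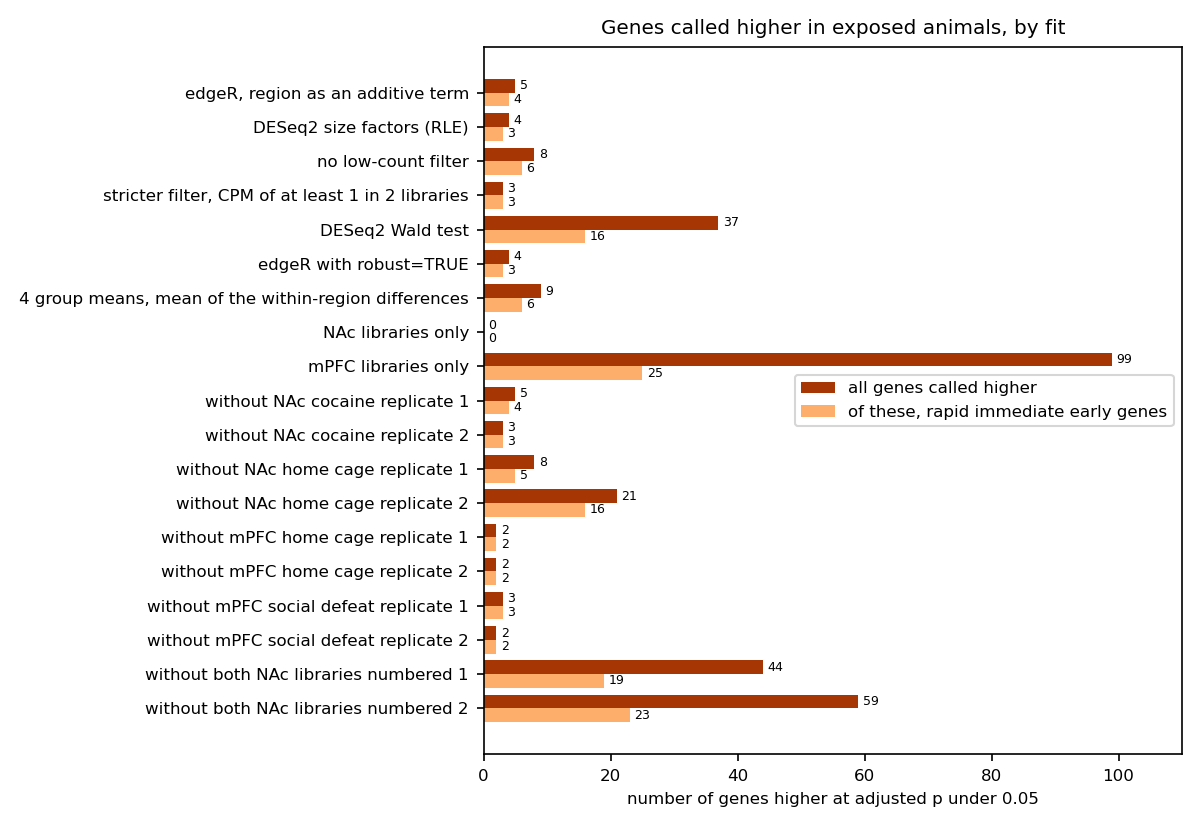
Number of genes called higher (x axis) under each fit (y axis), except the fit with a block for NAc replicate number. Dark bars show all genes and light bars members of the rapid lists. Fits of NAc or mPFC libraries alone show the response in that region, and the others the average response. The count was 5 in the reported fit, 0 with NAc libraries alone, 99 with mPFC libraries alone and between 2 and 21 when a library was left out.

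Of 43 rapid immediate early genes listed, 41 were tested, and 4 rose (Npas4, Egr2, Fosb and Ccn1), with 0 lower, where 0.0266% of all genes were called higher. The count of 4 became 16 without NAc home-cage replicate 2, and 2 without mPFC home-cage replicate 1, mPFC home-cage replicate 2 or defeat replicate 2; DESeq2 called 16. Over all genes, DESeq2 called 37 of 18783 higher. Csrnp1 and Amigo3 had 0 counts in all 8 libraries, as did 9185 of 33885 symbols, and no value. Such a 0 does not tell absent RNA from a symbol that the counting missed. The median log2 fold change of the 41 was 0.49, against -0.00366 over all genes tested, and 39 of 41 were positive (95.1%, against 48.2% of all genes). At an unadjusted p under 0.05, 26 of the 41 were higher, where 2% of all genes were. In 21 of the 41, both exposed libraries lay above both home-cage libraries in each region, a pattern that 2.26% of all genes showed, while 2.01% of all genes showed it downwards and no rapid gene did. These genes were listed as activity-regulated with earlier results of these data known, so their direction is a description. Among the uncalled members described next, DESeq2 called Fos (adjusted p = 0.00572), Junb (adjusted p = 9.98e-07), Atf3 (adjusted p = 0.00013), Egr4 (adjusted p = 0.0257), Nr4a1 (adjusted p = 0.000347), Arc (adjusted p = 2.62e-09), Dusp1 (adjusted p = 1.42e-08) and Btg2 (adjusted p = 0.000302), besides Arl4d, Gadd45b, Gadd45g and Zfp36. The p-values given for each gene below are edgeR's.

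Among the AP-1 genes, Fos, the partner of Jun proteins and the classical activity marker, had the largest change and the largest spread. It was at 14.4 and 17.7 CPM after cocaine against 2.01 and 7.73 CPM in NAc home-cage libraries, and at 39.7 and 41.0 CPM after defeat against 8.89 and 10.1 CPM. The NAc home-cage libraries thus differed from each other more than the cocaine libraries did. Its average log2 fold change was 1.91 (SE 0.337; adjusted p = 0.436), and it ran from 1.67 to 2.42 as single libraries were left out.

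Junb, another AP-1 subunit, was at 64.6 and 64.4 CPM after cocaine against 33.7 and 45.9 CPM, and at 127.7 and 126.2 CPM after defeat against 35.5 and 45.2 CPM. Its average log2 fold change was 1.18 (SE 0.199; adjusted p = 0.415), with 0.70 in NAc and 1.65 in mPFC. Atf3, a stress-responsive factor of the ATF family, was at most at 1.39 CPM in any library and had 1.32 (SE 0.217; adjusted p = 0.384). Jun itself had an average log2 fold change of 0.09, and Fosl1 had 0.17. The groups of Fosl1 overlapped in both regions. Those of Jun overlapped in NAc but were apart in mPFC, at 50.79 and 50.35 CPM after defeat against 44.94 and 48.04 CPM.

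Members of the Egr family differed in their average. Egr1, a widely used activity marker with a high basal level, was at 160.6 and 150.1 CPM after cocaine against 122.2 and 149.0 CPM, and at 452.5 and 446.0 CPM after defeat against 316.0 and 316.7 CPM. Its groups did not overlap, but its average log2 fold change was 0.35 (SE 0.0873; adjusted p = 1). Egr4 had an average of 0.57 (SE 0.131; adjusted p = 0.931) with groups apart in both regions. Egr3 had 0.04 (SE 0.0622; adjusted p = 1), and its cocaine libraries, at 83.2 and 82.2 CPM, lay below its NAc home-cage libraries at 85.3 and 87.9 CPM. In mPFC its defeat libraries, at 242.3 and 244.9 CPM, lay above its home-cage libraries at 209.5 and 230.1 CPM.

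Among the other transcription factors of the list, Nr4a1, an orphan nuclear receptor, was at 95.6 and 100.8 CPM after cocaine against 56.2 and 83.7 CPM, and at 194.4 and 204.4 CPM after defeat against 98.2 and 103.6 CPM. Its average log2 fold change was 0.74 (SE 0.139; adjusted p = 0.493). Ier2, a small nuclear protein gene, had 1.25, and the Krüppel-like factors Klf2 and Klf4 had 0.62 and 0.52, each with groups apart in both regions. Klf6, Ier5, Myc, Cebpb and Bhlhe40 lay between -0.04 and 0.03, with overlapping groups in NAc. In mPFC the groups of Bhlhe40 were apart, at 159.7 and 147.9 CPM after defeat against 124.1 and 140.2 CPM. Those of Klf6, Ier5, Myc and Cebpb overlapped there too.

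Of the effectors, Arc, which encodes a capsid-like synaptic protein that drives AMPA receptor uptake, was at 98.0 and 97.6 CPM after cocaine against 38.5 and 62.7 CPM. In mPFC it was at 354.7 and 407.3 CPM after defeat against 104.2 and 128.1 CPM. The average log2 fold change was 1.33 (SE 0.198; adjusted p = 0.228). Its response had the same sign in both regions and was larger in mPFC, 1.71 against 0.95, with an unadjusted p of 0.0415 for the difference and an adjusted p of 1.

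Dusp1, a phosphatase that switches MAP kinases off, was at 29.2 and 25.8 CPM after cocaine against 16.0 and 18.4 CPM, and at 61.2 and 67.6 CPM after defeat against 23.8 and 22.7 CPM. The average response was 1.07 on the log2 scale (SE 0.155; adjusted p = 0.228). Btg2, an antiproliferative cofactor of mRNA deadenylation, was at 13.9 and 19.2 CPM after cocaine against 4.36 and 9.41 CPM, and at 26.6 and 27.4 CPM after defeat against 5.88 and 5.47 CPM. The groups of both genes were apart in each region, and Btg2 had an average of 1.76 (SE 0.278; adjusted p = 0.327).

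Arl4d, a small GTPase of the ARF family, had 0.83 (SE 0.144; adjusted p = 0.436). Gadd45g and Gadd45b, which take part in stress signalling and DNA demethylation, had 0.93 and 0.58, and Zfp36, an mRNA decay factor, had 0.62. In each of these 4 genes the groups did not overlap in either region. At the other end, Plk2, Sgk1, Rgs2 and Ier3 lay between 0.04 and 0.11. Ccn2, the close relative of Ccn1, differed from it in mPFC, with a log2 fold change of 0.73 in NAc and -0.11 in mPFC and an average of 0.31 (SE 0.248; adjusted p = 1).

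The responses of the rapid genes were larger after social defeat in mPFC than after cocaine in NAc in 39 of 41 genes, with medians of 0.72 and 0.29, where 9413 of 18783 genes were larger in mPFC. No single gene was called for this difference: edgeR called 0 of 18783 (0%), with a smallest adjusted p of 1, and 415 had an unadjusted p under 0.05. DESeq2 called 2, Hba-a1 and Ovca2. Summed over the 41 genes, the level was 1364 and 1376 CPM after cocaine against 1053 and 1202 CPM in NAc home-cage libraries, and 2743 and 2771 CPM after defeat against 1688 and 1808 CPM. The home-cage mPFC libraries therefore lay above the cocaine libraries, and the average describes changes within regions, not a common level.

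**Figure D3:**
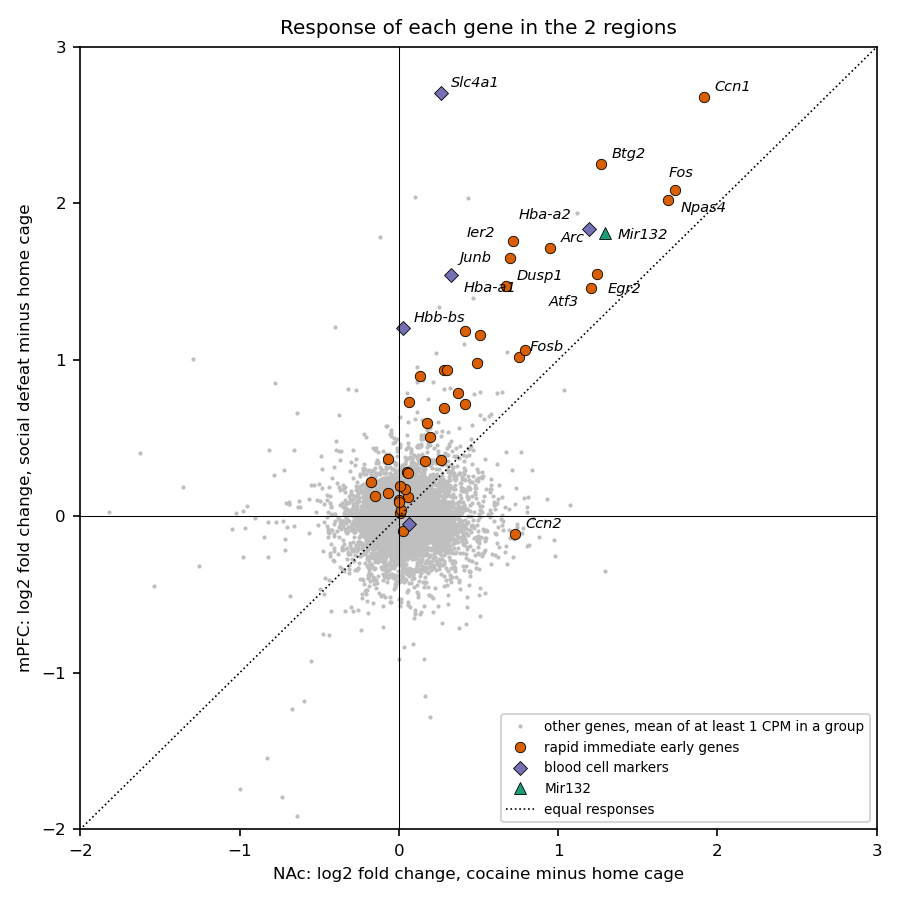
Log2 fold change after cocaine in NAc (x axis) against that after social defeat in mPFC (y axis), 1 point per gene; orange circles are rapid immediate early genes, violet diamonds blood cell markers, the green triangle Mir132, and grey points genes with a mean of at least 1 CPM in a group, of which 4 of 14479 lie outside the axes. Of the 41 orange circles, 39 lie above the dotted line of equal responses, with Ccn1 at 1.92 and 2.68, and of the blood cell markers, Slc4a1, Hba-a1 and Hbb-bs lie at 0.26, 0.33 and 0.03 on the x axis and above 1 on the y axis, Hba-a2 at 1.19 and 1.83, and Ptprc near 0 on both.

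The 5 genes with the smallest p for a larger value in mPFC were Ovca2, Dusp1, Hba-a1, Pdp1 and Slc4a1. Dusp1 had 0.67 (SE 0.102) in NAc and 1.47 (SE 0.103) in mPFC, an unadjusted p of 0.000754 for the difference. Pdp1, a phosphatase that activates pyruvate dehydrogenase, had -0.34 (SE 0.0651) in NAc and 0.11 (SE 0.0649) in mPFC, so its average of -0.12 (SE 0.0884) hid unlike values. Kcne1, a potassium channel subunit, had 2.17 in NAc and -1.07 in mPFC at levels of at most 0.251 CPM. The predicted genes Gm12576, 4933427I04Rik, Gm45949 and 4932438H23Rik were likewise positive in NAc, between 0.16 and 1.14, and negative in mPFC, between -0.57 and -0.22.

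Genes of the slower, delayed activity programme had a smaller median. Of 20 tested, edgeR called 0 in either direction, and 7 were higher at an unadjusted p under 0.05, where 2% of all genes were. DESeq2 called 3 of them higher, where it called 37 of all 18783 genes. These 3 were Nr4a3, Fosl2 and Tiparp, with DESeq2 adjusted p-values of 0.00037, 0.00619 and 0.00328. The median log2 fold change was 0.12, and in 5 the groups did not overlap, against 2.26% of all genes. These were Nr4a3, Fosl2, Homer1, Crem and Tiparp. Nr4a3, a nuclear receptor of the Nr4a family, had 0.92 (SE 0.184; adjusted p = 0.63), and its response in NAc, 1.03, was not below that in mPFC, 0.81. Fosl2, a late AP-1 subunit, was at 76.2 and 73.7 CPM after cocaine against 49.8 and 63.6 CPM and at 67.7 and 67.9 CPM after defeat against 50.3 and 53.2 CPM, with an average log2 fold change of 0.40 (SE 0.0744; adjusted p = 0.493). Homer1, a postsynaptic scaffold gene, had 0.15 in NAc and 0.87 in mPFC. Bdnf, a neurotrophin, had 0.42 (SE 0.28; adjusted p = 1) with overlapping groups in NAc. The secretory genes Vgf, Scg2, Nptx2 and Nrn1 lay between -0.10 and -0.03.

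In the average response, edgeR called no upstream kinase or constitutive factor, ERK feedback regulator or mRNA decay factor. Of 26 upstream kinases and constitutive factors, which include Creb1, Srf, Crebbp and the Crtc coactivators, 0 were called. Also, 0 had an unadjusted p under 0.05, 0 had groups apart in both regions and the median log2 fold change was -0.00606. Over all genes the upward shares were 0.0266%, 2% and 2.26%, so 0 of 26 lies near them. Sik2, a kinase that restrains the CREB coactivators, had the smallest p of the list, with 0.21 (SE 0.107; adjusted p = 1). Of 11 ERK feedback regulators, 0 were called (3 higher at an unadjusted p under 0.05, against 2% of all genes) and the median was 0.07, with Dusp5, an ERK phosphatase, at 0.54 (SE 0.156; adjusted p = 1). Of 11 mRNA decay factors, 0 were called (4 higher at an unadjusted p under 0.05, against 2% of all genes), and Zfp36l1, a relative of Zfp36, had 0.25 (SE 0.0598; adjusted p = 0.985) with its groups apart in both regions. With the mPFC libraries alone, edgeR called 99 of 18027 genes higher. Among them were Sik2 of the upstream list, Dusp5, Dusp6 and Spry4 of the ERK list, and Zfp36l1, Zfp36l2 and Tob1 of the decay list.

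Among 20 glucocorticoid-responsive genes, 18 were positive, against 48.2% of all genes, and 0 were called. Of these 20, 4 were higher at an unadjusted p under 0.05, against 2% of all genes, the median log2 fold change was 0.13, and 5 had groups apart in both regions, against 2.26% of all genes: Nfkbia, Errfi1, Mt2, Map3k6 and Plekhf1. Errfi1, a feedback inhibitor of EGF receptor signalling, had 0.18 (SE 0.0548; adjusted p = 1). Fkbp5 and Tsc22d3, textbook targets of the glucocorticoid receptor, both had 0.13. Of 18 circadian clock genes, 15 heat shock genes, 10 inflammatory genes and 10 integrated stress response genes, 0 were called and 0 had an unadjusted p under 0.05, with medians of 0.02, 0.04, 0.08 and 0.03. Over all genes, 0.0266% were called higher and 2% were higher at an unadjusted p under 0.05. Per1 had 0.17 (SE 0.0779; adjusted p = 1), Hspa5 -0.15 (SE 0.0704; adjusted p = 1), Nfkbia 0.17 (SE 0.0843; adjusted p = 1) and Atf4 0.16 (SE 0.0763; adjusted p = 1).

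**Figure D4:**
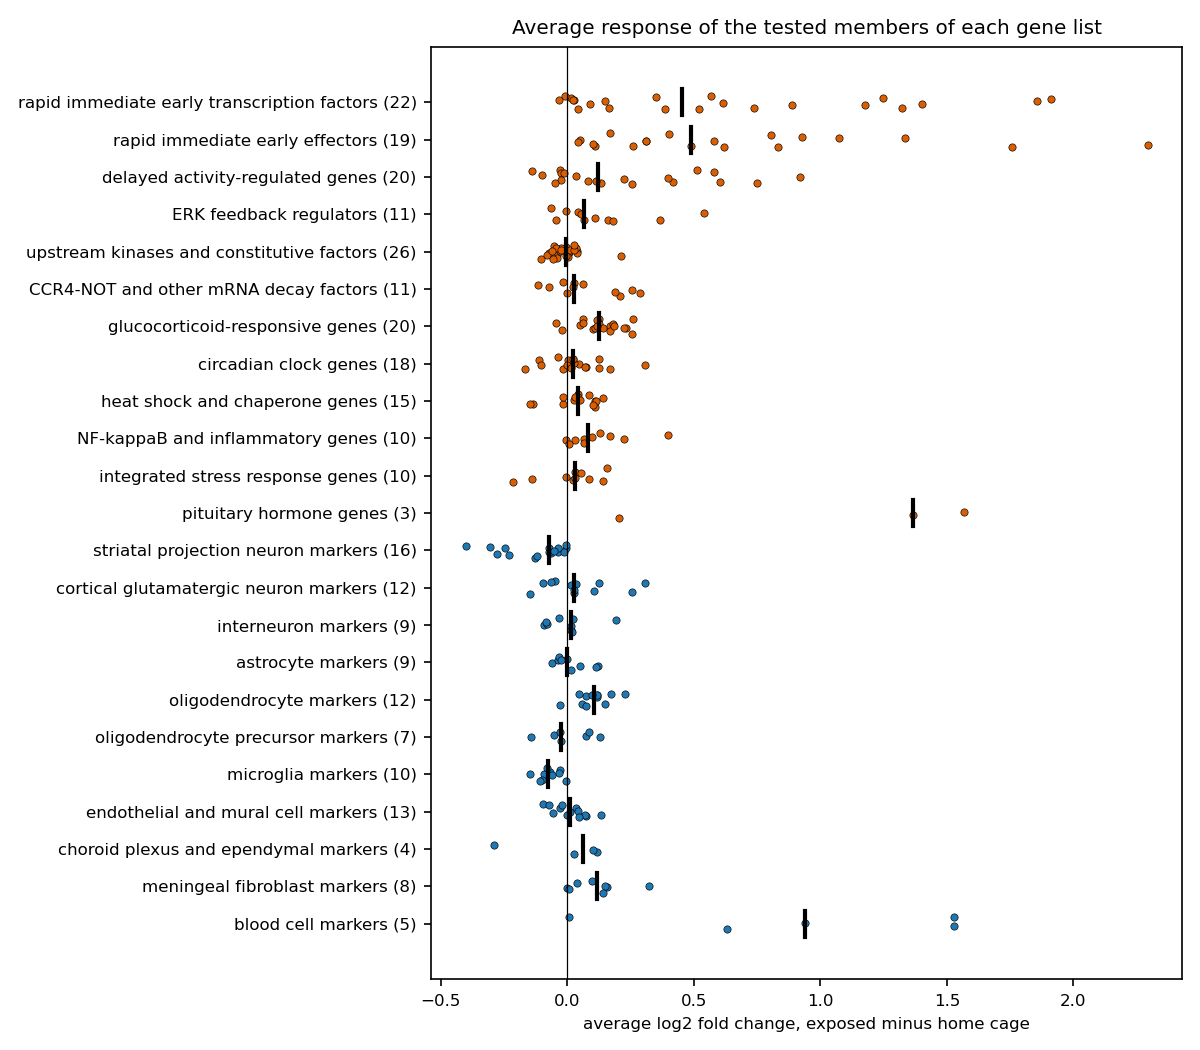
Average log2 fold change (x axis) of the tested members of each gene list (y axis), 1 point per gene (orange for pathway and hormone lists, blue for cell markers), with the median of each list as a bar and the number tested in brackets. The rapid lists had medians of 0.45 and 0.49, the delayed list 0.12 and the upstream kinases -0.00606; the blood cell list (0.94) and the pituitary list (1.37) have 5 and 3 tested members.

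Promoter letters, which the design did not use, were read for the 12 rapid transcription factors and 9 rapid effectors with groups apart in both regions. Windows were found for 18 of these 21 genes and for 30 of the 41 rapid genes. The CRE core TGACG stood in 83.3% of the 18 and in 70.0% of the 30, against 27.6% of all tested genes, and was absent from those of Gadd45b, Gadd45g and Zfp36. The full CRE palindrome TGACGTCA, which contains the core, stood in 22.2% and 16.7%, against 2.76%. The EGR element GCGNGGGCG stood in 38.9% and 26.7% against 9.23%, the TATA box TATAAA in 6 of the 18 and 9 of the 30 against 5.62%, and the CArG box in 11.1% and 6.67% against 1.39%. The AP-1 element TGANTCA stood in 0 of the 30 windows, against 5.59% of all. All motifs were searched on both strands except that TATAAA was read on the gene's strand. These are shares of a small, chosen set, with no test, and base composition was not matched.

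Rapid genes were also short. Their median gene span was 4.81 kb, and that of the 5 called genes 7.42 kb, against 23.3 kb over 17490 tested genes with a span. The delayed list had a median of 24.5 kb, and the 425 genes with groups apart upwards in both regions had 18.3 kb over the 395 with a span.

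DESeq2 made further calls outside the lists, named here after their values were seen. Coq10b, a coenzyme Q binding protein, was at 20.1 and 17.8 CPM after cocaine against 15.4 and 11.98 CPM, and at 26.3 and 27.9 CPM after defeat against 17.0 and 14.6 CPM, with an average log2 fold change of 0.62 (SE 0.105; edgeR adjusted p = 0.415). Rheb, a GTPase that activates mTORC1, was at 60.2 and 64.7 CPM against 52.7 and 53.6 CPM in NAc and at 72.8 and 71.8 CPM against 51.8 and 47.7 CPM in mPFC, with 0.39 (SE 0.0718; edgeR adjusted p = 0.493). In both genes the groups were apart in each region. Siah2, an E3 ubiquitin ligase, had 0.30 (SE 0.0558) and Gch1, the first enzyme of tetrahydrobiopterin synthesis, 0.87 (SE 0.176), with DESeq2 adjusted p-values of 0.014 and 0.00603.

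In the downward direction no gene was called by edgeR, and the 5 genes with the smallest p were Snx20, Npcd, Fut7, 4930548H24Rik and Slc25a43. Snx20, a sorting nexin, was at 1.25 and 1.38 CPM after cocaine against 1.76 and 1.77 CPM, and at 1.28 and 1.07 CPM after defeat against 1.80 and 1.77 CPM. Its average log2 fold change was -0.52 (SE 0.102; edgeR adjusted p = 0.623), and it was the gene DESeq2 called lower (adjusted p = 0.0339). Npcd had -0.35 (SE 0.0745; adjusted p = 0.723), and the others lay at or below 1.11 CPM in every library. In all 5 genes both exposed libraries lay below both home-cage libraries in each region, which is a description, since they were picked by their p. The same pattern was present in 377 genes, 2.01% of those tested.

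Markers of other cells and tissues were followed beside these genes. Over the 5 tested blood cell markers the median change was 0.94 on the log2 scale, and edgeR called 0 in the average response. At an unadjusted p under 0.05, 4 of the 5 were higher, against 2% of all genes. With the mPFC libraries alone, edgeR called Hba-a1, Hba-a2, Hbb-bs and Slc4a1 higher, among 99 of 18027 genes. DESeq2 called Hba-a2 (adjusted p = 8.61e-05) and Hba-a1 (adjusted p = 0.0116) higher, and edgeR called Hba-a2 when NAc cocaine replicate 1 was left out. Their summed level was 62.3 and 57.4 CPM after defeat against 23.6 and 23.3 CPM in mPFC home-cage libraries, and 24.1 and 18.3 CPM after cocaine against 19.0 and 16.1 CPM in NAc. The alpha-globin Hba-a2 had 1.53 (SE 0.223; adjusted p = 0.228) at 0.164 to 0.768 CPM, with 1.19 in NAc, 1.83 in mPFC and groups apart in both regions, and Hba-a1, whose sequence is nearly identical so that reads may be split between them, had 0.94 (SE 0.238; adjusted p = 1). Ptprc, the marker of white blood cells, had 0.01. Alas2 had 0 counts in every library, so absent RNA and a symbol missed by the counting cannot be told apart. Among pituitary hormone genes, Gh had 1.37 (SE 0.556; adjusted p = 1), at 1.73 and 1.63 CPM after defeat against 0.530 and 0.281 CPM and at no more than 0.425 CPM in NAc. Of the 3 tested pituitary hormone genes, 2 (Gh and Prl) were higher at an unadjusted p under 0.05, against 2% of all genes. Prl was at 0 CPM in every NAc library and at no more than 0.157 CPM in mPFC, so its value came from mPFC alone. With the mPFC libraries alone, edgeR called Gh higher. The part of blood or pituitary RNA in the responses above was not tested.

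Neuronal and glial marker lists had no member called. The 16 striatal markers were all negative on average, with a median of -0.07, and the 12 cortical markers had a median of 0.03. The striatal median joined -0.189 in NAc, with 3 positive, and -0.0331 in mPFC, with 7 positive. Oligodendrocyte markers were positive in 11 of 12 genes, with a median of 0.11 that joined 0.38 in NAc and -0.16 in mPFC. Their summed level was 1438 CPM in NAc home-cage replicate 2 against 2413 to 2734 CPM in the other NAc libraries. The 10 tested microglia markers were all negative on average, between -0.15 and -0.00559, with 3 positive in NAc and 0 in mPFC. P2ry12 had 0 counts in every library and may likewise have been missed by the counting. Astrocyte, interneuron, oligodendrocyte precursor, endothelial and mural, choroid plexus and meningeal lists had medians between -0.03 and 0.12. From these lists the members with the smallest p were Ido1 (-0.40), Rorb (0.12), Pvalb (0.19), S100b (0.11), Ermn (0.23), Olig2 (0.09), Cx3cr1 (-0.09), Cdh5 (0.13), Ttr (-0.29) and Slc22a6 (0.32), each at an edgeR adjusted p of 1.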

How the data were processed

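Total RNA libraries from NAc and mPFC were aligned to mm10 with STAR 2.7.1a and counted with featureCounts, per the submitters' processing notes. The authors deposited a table of raw counts by gene symbol for each region, without normalization. Annotation release, strand setting and treatment of multi-mapping reads: not given in the sources used here. From these counts, edgeR 4.0.16 in R 4.3.3 was run with default settings: filterByExpr on the 4 groups, TMM over the 8 libraries, estimateDisp, glmQLFit and glmQLFTest, with region and exposure as additive terms (5 residual degrees of freedom). p-values were Benjamini-Hochberg adjusted over all genes tested, with a threshold of 0.05. SE was taken as the size of the log2 fold change over the root of F. Within-region changes and their difference came from a fit of 4 group means. DESeq2 1.42.0 was an alternative, and others were another normalization, other low-count filters, robust dispersion, 1 region alone, a block for NAc replicate number and left-out libraries. The scripts were tested on simulated data. Figures and tables used python 3.11.15, pandas 2.3.3 and matplotlib 3.10.9. Coordinates, spans, promoters and miRNAs are from RefSeq GRCm38.p6, matched by symbol (27643 of 33885 symbols). A promoter entry was chosen by GENCODE M21's principal transcript where a gene had several.

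The 23 gene lists (12 of pathways and hormones, 11 of cell markers) and the members were chosen with earlier results of these data known, and no list was tested as a set. The genes named were, among called genes with groups apart in both regions and a mean of at least 1 CPM in a group, up to 12 higher and 8 lower by fold change, or, where fewer than 5 met this in a direction, the 5 with the smallest p. Also named were Arc, Dusp1, Egr1, Fos, Fosb, Junb, Npas4 and Nr4a1, the member with the smallest p of each list, and the 5 genes with the smallest p in each direction of the difference between regions. Other list members are given as examples chosen after their values were seen. The mPFC replicate numbers follow accession order. Where a left-out library leaves a group with 1, that library is assumed to vary like the other groups.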

Additional observations from a re-analysis of the deposited data

How the results depend on the processing

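The direction of the 5 called genes held under every alternative run, and what moved was the number of calls. Higher genes numbered 5 in the reported fit, 8 with no low-count filter, 3 with a stricter filter and 9 with 4 group means. DESeq2 called 37 higher (1 lower, 16 rapid genes, 2 genes for the difference between regions). With NAc alone 0 were higher (0 rapid), and with mPFC alone 99 (28 lower, 25 rapid). In mPFC alone, 32 of 41 rapid genes had groups apart upwards, as did 16.6% of the 18027 genes tested. Without both NAc libraries numbered 1, 44 were higher (19 rapid, 229 for the difference), and without both numbered 2, 59 were higher and 12 lower (23 rapid, 128 for the difference). Leaving out 1 library at a time gave 2 to 21 higher genes, 2 to 16 rapid genes and 0 to 1 genes for the difference. With the NAc number as a replicate block, 34 genes were higher (17 rapid), 1 was lower and 3 were called for the difference; 26 of the 34 were also called by DESeq2. The block called Fos at 2.03 (SE 0.17; adjusted p = 6.44e-05), Arc, Btg2, Dusp1, Junb and Nr4a1 (adjusted p 0.000395, 6.82e-05, 0.00135, 0.00314 and 0.002), 6 delayed genes (Nr4a3, Fosl2, Tiparp, Nr4a2, Pcsk1 and Bdnf) and Hba-a2 (adjusted p = 0.00451). The labels give the NAc titles a shared number but do not call it a batch, and the differences of replicate 1 minus 2 correlated at 0.572 over 18783 genes between cocaine and home cage. The stricter filter tested 14494 genes and the fit without a filter 24700, against 18783 in the reported fit. Why the number of calls moved between settings was not tested. Signs turned only in uncalled genes. Kcne1 had 0.30 with DESeq2 and 0.55 with group means, and Gm12576 had 0.16 in NAc alone. In mPFC alone, Olig2 had -0.029, Cdh5 -0.027, Ttr 1.02, Pdp1 0.11, 4933427I04Rik -0.49, Gm45949 -0.22 and 4932438H23Rik -0.26. Ttr had 0.88 without both NAc libraries numbered 1, where 4933427I04Rik had -0.12, and the latter had -0.18 without both numbered 2. With single libraries left out, Ido1 ran from -1.08 to 0.31, Ttr from -1.03 to 0.57, Kcne1 from -0.37 to 0.44 and 4933427I04Rik from -0.12 to 0.15.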
